A study of Mus musculus with 6 samples.

Results

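Basal epithelial genes were followed in RNA sequencing of mouse prostate tumors of mice with a conditional β-catenin allele and of normal prostate. The set held 9 genes, taken by their symbols from the 24091 genes of the count table: Trp63, Krt5, Krt14, Krt15, Col17a1, Itga6, Itgb4, Lamb3 and Dst. All 9 had enough counts to be among the 15050 genes tested. The 6 libraries fell into 3 groups of 2. The 12Q tumors came from mice with a humanised allele that encodes 12 glutamines in a polyglutamine tract, and the 48Q tumors from mice with 48 glutamines there. Both tumor genotypes also carried Ctnnb1(Ex3)L/wt, which is 1 β-catenin allele with a conditional exon 3, and the PBCre-4 transgene. This transgene expresses Cre recombinase in prostate epithelium, where loss of exon 3 stabilises β-catenin. The remaining pair of libraries held prostate of wild-type mice without tumors (WT) and without any of these alleles, so the effects of the alleles and of the tumor cannot be told apart in comparisons with WT. The tumor genotypes differed from each other, per the labels, only in the glutamine number. Neither the ages of the mice nor the origin of replicates from different animals is stated, and p-values therefore reflect the spread among these libraries alone, which may be technical.

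Basal cells form the outer layer of prostate epithelium, between the secretory luminal cells and the basement membrane. The transcription factor p63, encoded by Trp63, marks them and is needed for their development. Their cytoskeleton is built from keratin pairs, a type II keratin (Krt5) with a type I keratin (Krt14 or Krt15). They are anchored by hemidesmosomes, in which the integrin of the Itga6 and Itgb4 products and collagen XVII (Col17a1) span the membrane. Inside the cell the integrin is tied to keratins by plakin proteins such as the epithelial product of Dst, and outside it binds a laminin that holds the Lama3 and Lamb3 products. Itga6, Itgb4, Lamb3 and Dst are also used by other cells, Itga6 by endothelium and luminal epithelium, and Dst by muscle and nerve.

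Libraries held 26416181 to 28559546 counts. At this depth 3 counts equal 0.0856 to 0.156 CPM (counts per 1e+06, scaled by the trimmed mean of M-values). Group values below are mean CPM ± SD of 2 libraries. Replicate pairs had a Pearson r across genes of 0.947 (12Q), 0.983 (48Q) and 0.955 (WT). Ctnnb1 was at 996 ± 54.2 CPM in 12Q, 1019 ± 88.0 in 48Q and 619 ± 70.7 in WT. Gene counts cannot show the deletion of its exon 3. The prostate marker Hoxb13 was at 132 ± 106 CPM in 12Q, 120 ± 9.97 in 48Q and 223 ± 32.3 in WT. Pbsn, the gene of the secreted protein probasin, whose promoter drives the Cre transgene, averaged 4.23 ± 1.28 CPM in 12Q, 3101 ± 1207 in 48Q and 22179 ± 8535 in WT. It was lower in 12Q than in 48Q (log2 fold change -9.51 ± 0.97 SE, edgeR adjusted p = 0.0165). That call was lost without 12Q replicate 2 or 48Q replicate 1 (adjusted p = 0.0514 and 0.0734).

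The basal genes divided in 12Q tumors. Trp63, Krt5, Krt15 and Col17a1 were nearly absent from both 12Q libraries, while 48Q tumors held them at levels that did not differ past the threshold from normal prostate. Krt14 and Dst were also lower in 12Q than in WT, by smaller amounts. The integrin genes did not follow, Itga6 having overlapping levels in all groups and Itgb4 being higher in 12Q than in WT. Of the 9 genes, edgeR called 6 lower and 1 higher in 12Q than in WT (threshold adjusted p of 0.05), where 11.2% of all tested genes were lower and 11.2% higher (22.4% in either direction). Between the tumors it called 5 lower in 12Q than in 48Q and 0 higher, where 3.16% of all tested genes were lower and 1.01% higher (4.17% in either direction). DESeq2 called 6 lower and 1 higher (Itgb4) there, beside 1575 lower and 922 higher of 15859 genes. In 48Q against WT edgeR called 0 of 9, where 3.95% of all tested genes were higher and 1.23% lower (5.18% in either direction). In that comparison 2 of the 9 had an unadjusted p under 0.05, beside 3749 of all 15050 tested genes. DESeq2 also called 2 of the 9, beside 2554 of 15492 genes. The median log2 fold change of the 9 genes was -3.91 in 12Q against WT, -3.21 in 12Q against 48Q and 0.18 in 48Q against WT. The medians of all tested genes were -0.01, 0.00 and 0.02. Scaled by library totals instead, those of all genes were 0.48, -0.19 and 0.71, with 3266 genes higher and 1032 lower in 12Q than in WT (1687 and 1683 before), 62 and 379 in 12Q than in 48Q (152 and 475 before), and 1921 higher and 83 lower in 48Q than in WT (595 and 185 before). In bulk tissue, fewer cells of a type and less RNA per cell cannot be told apart.

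**Figure D1:**
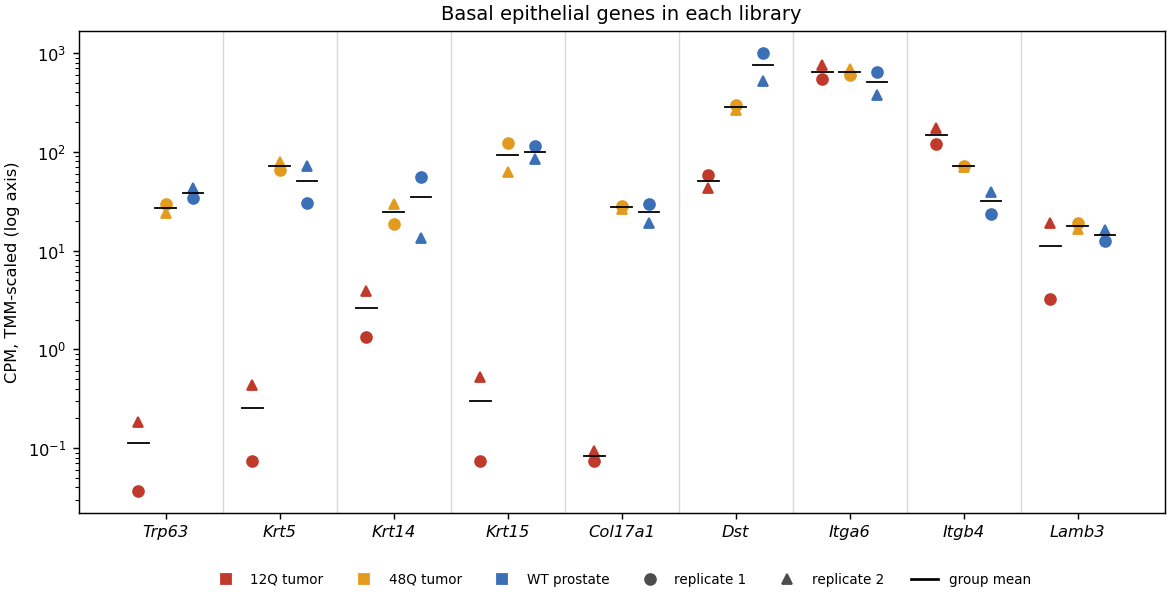
Level of the 9 basal epithelial genes in CPM on a log axis, with 1 point per library (circle replicate 1, triangle replicate 2), groups from left to right 12Q, 48Q and WT, and a black line at each group mean. The 12Q points of Trp63, Krt5, Krt15 and Col17a1 lie below 1 CPM, and those of Itga6 lie among the others.

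Trp63 (mm10, chromosome 16, 25683765 to 25892088, plus strand) encodes the factor that defines basal cells, and its counts cannot separate its long and short isoforms. It had 0.0370 and 0.186 CPM in the 12Q libraries, against 29.6 and 24.2 in 48Q and 33.9 and 42.9 in WT. The 12Q values rested on 1 and 6 counts. The 12Q libraries lay far below all others, and the 48Q libraries lay somewhat below both WT libraries. The log2 fold change of 12Q was -8.32 ± 0.60 (SE) against WT (edgeR adjusted p = 0.0027) and -7.80 ± 0.59 against 48Q (edgeR adjusted p = 0.00813). For 48Q against WT it was -0.51 ± 0.40, which did not pass (edgeR adjusted p = 0.465) and was 0.17 when libraries were scaled by their totals. Summed over both libraries, 12Q had a Trp63 level 228-fold below 48Q, with an exact 95% interval of 110 to 567 that covers counting error only.

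Krt5 (chromosome 15, 101707070 to 101712891, minus strand) encodes the type II keratin of basal cells. Its promoter is shown with that of Col17a1 because both genes were nearly lost in the same libraries. RefSeq promoters (GRCm38.p6, 250 bases before to 50 after the start site) were found for 5 of the 9 genes, as 7 windows. Those shown are chr15:101712856-101713155 for Krt5 and chr19:47691993-47692292 for Col17a1, both on the minus strand and written 5′ to 3′. Capitals mark matches to a relaxed form of the paired site bound by the p53 family (2 copies of CNNG with 6 bases between them) and to TATAAA, on either strand.
Krt5: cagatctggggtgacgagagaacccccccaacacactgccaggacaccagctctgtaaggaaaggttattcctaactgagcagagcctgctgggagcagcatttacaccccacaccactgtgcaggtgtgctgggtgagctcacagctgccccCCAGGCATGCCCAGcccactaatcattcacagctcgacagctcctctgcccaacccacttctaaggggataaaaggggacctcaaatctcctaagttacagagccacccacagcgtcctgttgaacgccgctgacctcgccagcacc
Col17a1: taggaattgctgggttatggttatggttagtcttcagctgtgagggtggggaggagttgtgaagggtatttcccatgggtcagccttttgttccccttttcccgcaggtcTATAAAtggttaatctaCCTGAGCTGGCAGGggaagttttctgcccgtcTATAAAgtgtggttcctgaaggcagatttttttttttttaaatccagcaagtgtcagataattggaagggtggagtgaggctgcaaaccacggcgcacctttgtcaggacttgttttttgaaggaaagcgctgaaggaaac
The relaxed p53-family letters stood at -97 to -84 in the Krt5 window and at -123 to -110 in that of Col17a1, counted from the start site. They were present in 6 of the 7 windows of basal genes and in 70.2% of all 32851 promoters. The stricter form, 2 copies of CATG with 6 bases between them, was in 0 of the 7 and in 0.712% of all. TATAAA was in 1 of the 7, at both -140 to -135 and -91 to -86 of Col17a1, and in 13.6% of all. TGANTCA (AP-1), CTTTGAT (TCF/LEF) and GGGCGG (SP1) were in 0, 0 and 1 of the 7, and in 7.81%, 3.73% and 35.7% of all. AGAACA, a steroid receptor half-site, was in 1 of the 7 and in 19.0% of all.

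Krt5 had 0.0740 and 0.433 CPM in 12Q, against 65.2 and 79.5 in 48Q and 30.2 and 72.1 in WT. Both 12Q libraries, with 2 and 14 counts, lay below every other library, while the 48Q libraries lay on either side of the higher WT library. For Krt5 the log2 fold change was -7.58 ± 0.80 in 12Q against WT (edgeR adjusted p = 0.00436), -8.08 ± 0.81 in 12Q against 48Q (edgeR adjusted p = 0.0165) and 0.50 ± 0.56 in 48Q against WT (edgeR adjusted p = 0.62). Some counts of Krt5 are uncertain, because 5.87% of its exon bases overlap a microRNA gene on the opposite strand and 12.2% of its 50-base words also occur in transcripts of other genes, Krt6a and Krt6b among them.

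Krt15 (chromosome 11, 100131759 to 100135949, minus strand) encodes a type I keratin of basal cells. It had 0.0740 and 0.526 CPM in 12Q, against 123 and 62.7 in 48Q and 115 and 84.3 in WT. The 12Q libraries held 2 and 17 counts, and the ranges of 48Q and WT overlapped. Krt15 had a log2 fold change of -8.30 ± 0.80 in 12Q against WT (edgeR adjusted p = 0.00362), -8.20 ± 0.80 in 12Q against 48Q (edgeR adjusted p = 0.0161) and -0.10 ± 0.55 in 48Q against WT (edgeR adjusted p = 0.929).

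Col17a1 (chromosome 19, 47646341 to 47692042, minus strand) encodes the collagen of hemidesmosomes. It had 0.0740 and 0.0928 CPM in 12Q, against 28.5 and 26.6 in 48Q and 29.9 and 18.9 in WT. Of the lost genes it varied least between the 12Q libraries, which held 2 and 3 counts. Its log2 fold change was -8.11 ± 0.48 in 12Q against WT (edgeR adjusted p = 0.00256), -8.28 ± 0.48 in 12Q against 48Q (edgeR adjusted p = 0.00813) and 0.18 ± 0.32 in 48Q against WT (edgeR adjusted p = 0.765).

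Trp63, Krt5, Krt15 and Col17a1 were lower in 12Q than in WT and 48Q under every alternative tried, including each left-out library. The sizes of the first 3 depended on the 12Q libraries. Without 12Q replicate 1 the log2 fold changes against 48Q were -7.12 for Trp63, -7.34 for Krt5 and -7.42 for Krt15, and against WT they were -7.61, -6.82 and -7.50. Without 12Q replicate 2, which left 1 to 2 counts in 12Q, Trp63 was 726-fold lower than in 48Q (95% interval 130 to 28700), Krt5 980-fold (271 to 8100) and Krt15 1240-fold (344 to 10300). Against WT the same left 1050-fold (188 to 41400), 714-fold (198 to 5900) and 1330-fold (367 to 11000). Without WT replicate 2, Krt5 was at -6.82 against WT.

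Krt14 (chromosome 11, 100203162 to 100207510, minus strand), the usual type I partner of Krt5, kept more of its level. It had 1.33 and 3.90 CPM in 12Q, against 18.8 and 29.8 in 48Q and 55.8 and 13.5 in WT. The 12Q libraries were again below all others, but the WT libraries differed from each other by more than the 48Q libraries did. The log2 fold change was -3.72 ± 0.84 in 12Q against WT (edgeR adjusted p = 0.0275), -3.21 ± 0.82 in 12Q against 48Q (edgeR adjusted p = 0.0776) and -0.51 ± 0.75 in 48Q against WT (edgeR adjusted p = 0.708). The call against WT was lost without 12Q replicate 1 (-3.10, adjusted p = 0.0973), 12Q replicate 2 (-4.69, adjusted p = 0.0607) or WT replicate 1 (-2.36, adjusted p = 0.0824), and without WT replicate 2 the value was -4.41. Against 48Q the value was -2.61 without 12Q replicate 1 and -4.17 without 12Q replicate 2. DESeq2 called Krt14 lower in 12Q than in 48Q (adjusted p = 0.000719). Of its 50-base words, 14.4% also occur in transcripts of Krt16 or Krt17. Krt17 had 13.8 and 64.3 CPM in 12Q, against 6.80 and 10.8 in 48Q and 30.4 and 1.02 in WT, and the share of Krt14 counts that came from Krt17 RNA was not tested.

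Dst (chromosome 1, 33908225 to 34308662, plus strand) encodes plakins, with an epithelial hemidesmosome form and long muscle and nerve forms that gene counts cannot separate. It had 58.4 and 42.6 CPM in 12Q, against 299 and 267 in 48Q and 998 and 524 in WT. The 3 groups stood in steps without overlap, and both tumors lay below normal prostate. Dst in 12Q had a log2 fold change of -3.91 ± 0.42 against WT (edgeR adjusted p = 0.00449) and of -2.49 ± 0.40 against 48Q (edgeR adjusted p = 0.0324). That of 48Q against WT was -1.43 ± 0.38, not past the threshold with edgeR (adjusted p = 0.0828) and past it with DESeq2 (adjusted p = 0.00537). The call between the tumors was lost without 12Q replicate 1 (-2.70, adjusted p = 0.0806), 12Q replicate 2 (-2.27, 0.0903), 48Q replicate 1 (-2.40, 0.163) or 48Q replicate 2 (-2.56, 0.104). Smooth muscle genes stood in the same steps as Dst, at a summed level of 127 to 128 CPM in 12Q, 413 to 1065 in 48Q and 2790 to 7321 in WT, and their part in the Dst values was not tested.

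Itga6 (chromosome 2, 71786939 to 71858427, plus strand) encodes the α6 integrin chain. It had 542 and 749 CPM in 12Q, against 597 and 696 in 48Q and 640 and 373 in WT. All groups overlapped. Neither tumor differed past the threshold from WT, each with a log2 fold change of 0.35 ± 0.37 (edgeR adjusted p = 0.525 for 12Q and 0.592 for 48Q), and 12Q against 48Q stood at 0.00 ± 0.37 (edgeR adjusted p = 0.998).

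Itgb4 (chromosome 11, 115974725 to 116008411, plus strand) encodes the β4 chain, which pairs only with α6. It had 119 and 175 CPM in 12Q, against 72.4 and 70.2 in 48Q and 23.4 and 39.6 in WT. The groups again stood in steps without overlap, in the opposite order to Dst. The log2 fold change was 2.22 ± 0.34 in 12Q against WT (edgeR adjusted p = 0.00961), the 1 basal gene that was higher there. It was 1.05 ± 0.33 in 12Q against 48Q (edgeR adjusted p = 0.115) and 1.18 ± 0.33 in 48Q against WT (edgeR adjusted p = 0.0908). DESeq2 placed both of these past the threshold (adjusted p = 0.0394 and 0.0241). A long noncoding RNA gene on the opposite strand overlaps 7.66% of the exon bases of Itgb4, and the strand setting of the counting is not stated.

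Lamb3 (chromosome 1, 193207725 to 193343878, plus strand) encodes the β3 chain of the epithelial laminin. It had 3.22 and 18.9 CPM in 12Q, against 19.1 and 16.7 in 48Q and 12.5 and 16.1 in WT. Replicate 1 of 12Q lay below every other library and replicate 2 lay within the range of 48Q and WT. Its log2 fold change was -0.36 ± 0.74 in 12Q against WT (edgeR adjusted p = 0.749), -0.69 ± 0.74 in 12Q against 48Q (edgeR adjusted p = 0.575) and 0.33 ± 0.74 in 48Q against WT (edgeR adjusted p = 0.816). Without 12Q replicate 2, Lamb3 was lower in 12Q than in WT (-2.14, adjusted p = 0.0345), and without 12Q replicate 1 the value was 0.46 (adjusted p = 0.336). Lama3, the α chain of the same laminin, stood in the same order in 12Q, at 13.2 CPM in replicate 1 and 161 in replicate 2, against 72.0 and 48.9 in 48Q and 143 and 123 in WT. Lama3 passed the test in no comparison and was chosen after its values were seen.

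**Figure D2:**
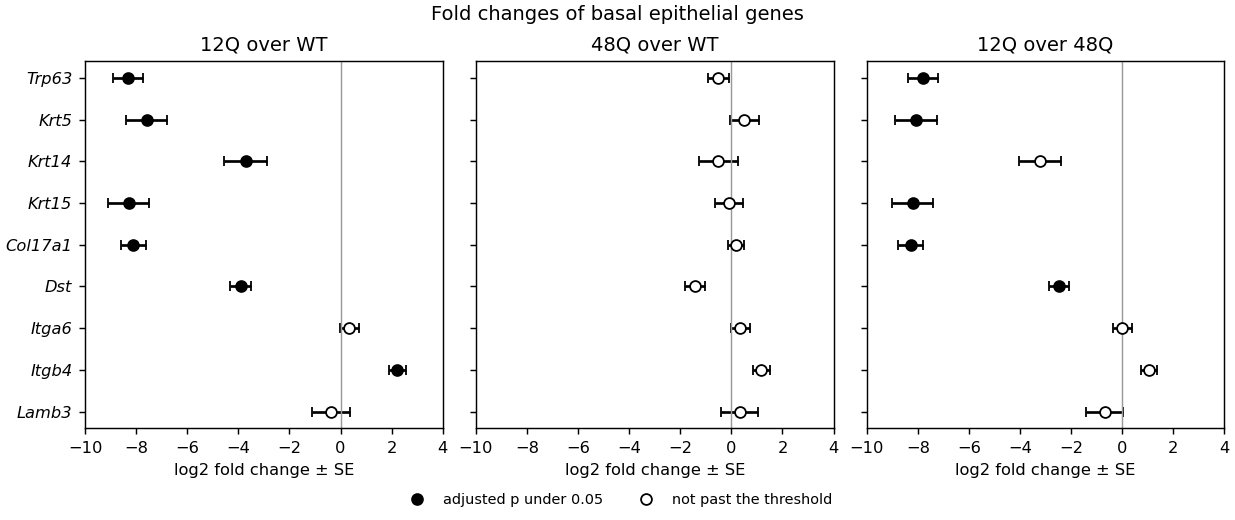
Log2 fold change of each basal gene in 12Q against WT, 48Q against WT and 12Q against 48Q, with bars of ±1 SE (filled points passed an edgeR adjusted p of 0.05, open points did not). Trp63, Krt5, Krt15 and Col17a1 lie near -8 in both comparisons of 12Q and near 0 in 48Q against WT, while Itgb4 lies above 0 in all comparisons.

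Levels of different genes were set side by side as CPM per kilobase of gene model. In 12Q the order of levels began with Itga6 (77.4 ± 17.5) and Itgb4 (18.6 ± 5.04), which did not overlap with each other or with any other gene. Lamb3 (2.17 ± 2.18), Dst (1.53 ± 0.34) and Krt14 (1.53 ± 1.06) followed and did not differ beyond their spread. Krt15 (0.175 ± 0.187) and Krt5 (0.116 ± 0.116) came next, and Col17a1 (0.0152 ± 0.0024) and Trp63 (0.0132 ± 0.0124) last, again without a difference beyond the spread within each pair. In 48Q, Itga6 (77.5 ± 8.39) was followed by the keratins Krt15 (54.3 ± 25.0), Krt5 (33.2 ± 4.62) and Krt14 (14.2 ± 4.55), then by Itgb4 (9.02 ± 0.202), Dst (8.58 ± 0.676), Col17a1 (5.02 ± 0.257), Lamb3 (3.51 ± 0.338) and Trp63 (3.18 ± 0.448). WT had the order Itga6 (60.7 ± 22.7), Krt15 (58.1 ± 12.6), Krt5 (23.4 ± 13.6), Dst (23.1 ± 10.2), Krt14 (20.2 ± 17.5), Trp63 (4.54 ± 0.751), Col17a1 (4.45 ± 1.41), Itgb4 (3.99 ± 1.45) and Lamb3 (2.80 ± 0.504). In both 48Q and WT the 3 keratins were thus above Itgb4 in their means, whereas in 12Q they were below it. Neighbours in the WT order overlapped between libraries, except Krt15 with Krt5 and Krt14 with Trp63. In 48Q the overlapping neighbours were Itga6 with Krt15, Itgb4 with Dst, and Lamb3 with Trp63.

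Ratios of these per-length levels within a library do not depend on how libraries are scaled, but show only unequal change. Itgb4 over Trp63 was 3440 and 1010 in 12Q, against 2.62 and 3.10 in 48Q and 0.740 and 0.988 in WT. Itgb4 over Col17a1, the other membrane-spanning hemidesmosome gene, was 1120 and 1310 in 12Q, against 1.76 and 1.83 in 48Q and 0.544 and 1.45 in WT. Itgb4 over Dst was 8.50 and 17.2 in 12Q, against 1.01 and 1.10 in 48Q and 0.0980 and 0.315 in WT. For each of these ratios the groups stood in the same order, 12Q highest and WT lowest, without overlap. Itga6 over Itgb4 was lowest in 12Q, at 4.32 and 4.05, against 7.81 and 9.40 in 48Q and 25.9 and 8.92 in WT, where 48Q and WT overlapped. Krt5 over Krt14 was 0.0436 and 0.0872 in 12Q, against 2.72 and 2.09 in 48Q and 0.425 and 4.19 in WT. Krt15 over Krt5 overlapped between all groups, at 1.27 and 1.55 in 12Q, against 2.40 and 1.00 in 48Q and 4.84 and 1.49 in WT. The 12Q values rest on 2 Krt15 and 2 Krt5 counts in replicate 1, and on 17 and 14 in replicate 2. These counts are too few to compare the proportions of the keratins.

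Genes most like Trp63 over the 6 libraries were found by the root mean square difference of centred log2 CPM (prior count of 2). The other basal genes were left out, as were predicted and clone genes (named Gm with digits, or with Rik). The nearest were Igfbp6 (difference 0.36, Pearson r 0.997), Hoxd13 (0.361, r 0.995), Chrdl1 (0.386, r 0.995), Ogn (0.405, r 0.997) and Pclo (0.409, r 0.994). They encode a binding protein of insulin-like growth factors, a homeobox factor, a secreted antagonist of bone morphogenetic proteins, a small proteoglycan and a presynaptic protein. Their levels were 0 to 0.217 CPM in 12Q, 9.35 to 30.1 in 48Q and 11.0 to 44.0 in WT. Krt15 (0.526), Col17a1 (0.527) and Krt5 (0.585) lay farther from Trp63 than these. Krt14 (2.10), Dst (2.20), Lamb3 (3.14), Itga6 (3.71) and Itgb4 (4.41) lay farther still. For genes near 0 counts in 12Q the prior count sets a floor, so these distances also depend on the levels in 48Q and WT. Mean CPM there was 26.9 and 38.4 for Trp63, 92.9 and 99.5 for Krt15, 27.5 and 24.4 for Col17a1 and 72.4 and 51.1 for Krt5. The genes nearest to Itgb4 were Pald1 (0.064), Mybl2 (0.116), Stn1 (0.117), Psmb8 (0.135) and Plxnd1 (0.136), with r of 0.990 to 0.998. Mybl2 encodes a factor of proliferating cells and Psmb8 an immunoproteasome subunit. These likenesses describe 6 libraries that share their groups, and no test was made of them.

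**Figure D3:**
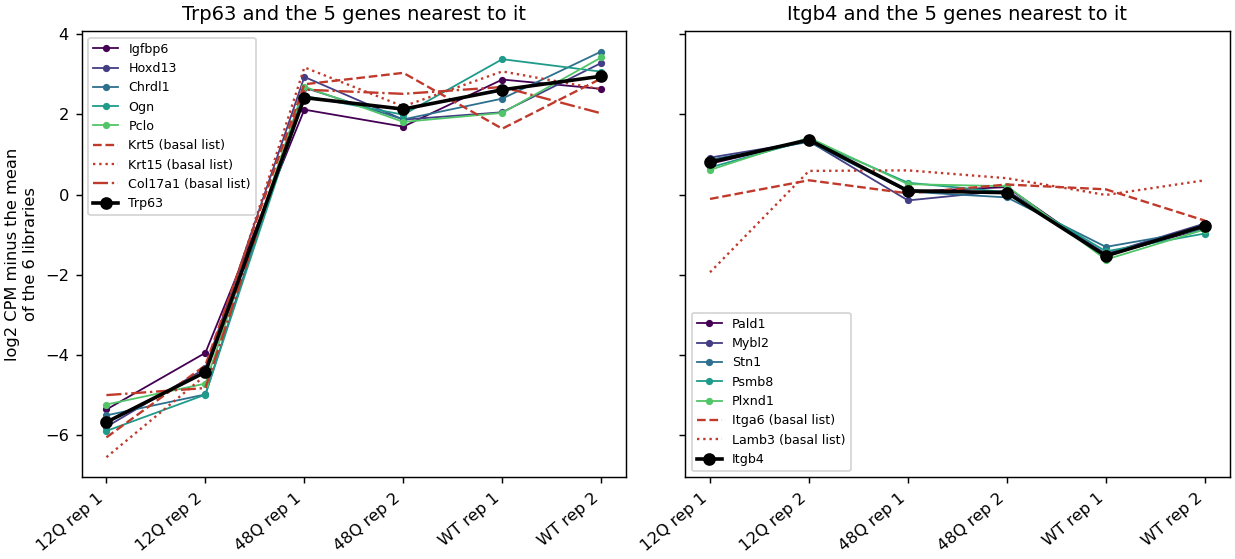
Centred log2 CPM in each of the 6 libraries (12Q, 48Q and WT from left to right) of Trp63 and Itgb4 (black), each with its 5 nearest genes (thin lines) and with other basal genes (red broken lines). Trp63 and its nearest genes lie low together in both 12Q libraries, and Itgb4 and its nearest genes are highest in 12Q and lowest in WT.

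Related genes were counted in lists around the basal set. Of 17 partners in the hemidesmosome and basement membrane, edgeR called 3 higher and 2 lower in 12Q than in WT, beside 22.4% of all tested genes in either direction, with 12 not past the threshold and a median log2 fold change of 0.57. Col4a1, a collagen IV chain of all basement membranes, was higher, at 371 ± 103 CPM in 12Q, 211 ± 32.7 in 48Q and 56.0 ± 42.6 in WT (2.73 in 12Q against WT, adjusted p = 0.0238), a call lost without 12Q replicate 2 (adjusted p = 0.0783), and stood at 2.11 without WT replicate 1 and 3.84 without WT replicate 2. Fermt1, which encodes the integrin activator kindlin-1, was higher in 12Q too (3.86, adjusted p = 0.027), a call lost without 12Q replicate 2 or WT replicate 1 (adjusted p = 0.0875 and 0.0539), and the value was 4.45 without 12Q replicate 1 and 5.61 without WT replicate 2. Col4a6, a chain found in smooth muscle and some epithelial basement membranes, had 0.148 and 2.51 CPM in 12Q, against 52.8 and 21.6 in 48Q and 382 and 477 in WT. It was lower in 12Q than in WT (-8.31, adjusted p = 0.00884), at -7.37 without 12Q replicate 1 and -11.46 without 12Q replicate 2. None of the 17 passed in 48Q against WT or in 12Q against 48Q with edgeR. Over all genes, 3749 and 3961 of 15050 had an unadjusted p under 0.05 there, and DESeq2 called 2554 of 15492 and 2497 of 15859. Of the 17, 4 and 7 had such a p and DESeq2 called 3 and 5. For 48Q, edgeR called 1 without either 12Q library and 2 without WT replicate 2. The medians there were -0.04 and 0.71. Plec, the other plakin of hemidesmosomes, had 218 and 696 CPM in 12Q, against 279 and 280 in 48Q and 370 and 189 in WT, and passed in no comparison. It was chosen after its values were seen.

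Of 18 further basal epithelial genes, 17 were tested, with a median log2 fold change of 0.07 in 12Q against WT. There edgeR called 2 higher and 4 lower, with 11 not past, beside 22.4% of all tested genes in either direction. Without 12Q replicate 1 it called 3 lower and 0 higher. Cdh3, the gene of P-cadherin, had 1 and 2 counts in 12Q (0.0370 and 0.0619 CPM), against 12.1 and 12.1 CPM in 48Q and 12.3 and 11.0 in WT. It was lower in 12Q than in WT by 229-fold (exact 95% interval 77.9 to 1110, adjusted p = 0.0027) and than in 48Q by 240-fold (81.7 to 1160, adjusted p = 0.00813), and was the 1 gene of the list called between the tumors. Over all tested genes 4.17% were called between the tumors, and without WT replicate 1 or 2 the list had 4 and 3 calls there. Jag2, a Notch ligand, was at 3.58 ± 1.46 CPM in 12Q, 16.6 ± 1.15 in 48Q and 22.1 ± 12.7 in WT (-2.62 in 12Q against WT, adjusted p = 0.0203), a call lost without 12Q replicate 1 (adjusted p = 0.0693) or WT replicate 2 (-1.88, adjusted p = 0.0538). Dlk2, a membrane protein related to Notch ligands, had 2 counts over both 12Q libraries and was 116-fold lower than in WT (31.5 to 964, log2 fold change -6.58, adjusted p = 0.0189). That call was lost without 12Q replicate 2 (-5.56, adjusted p = 0.0683), the value was -7.28 without WT replicate 1 and -5.19 without WT replicate 2, and 12Q replicate 2 held 0 counts. The called genes that were higher in 12Q, both calls being lost without 12Q replicate 1, were Dkk3 and Ngfr, with 67.4 and 37.7 CPM and with 33.5 and 3.31 CPM, against 2.76 and 12.1 and against 1.15 and 1.33 in WT. In 48Q, Dkk3 was at 44.5 ± 12.3 CPM and Ngfr at 9.58 ± 1.01, both also above their WT libraries in the mean. None of the 17 passed with edgeR in 48Q against WT. Over all genes, 3749 of 15050 had an unadjusted p under 0.05 there, and DESeq2 called 2554 of 15492. In the list, 6 had such a p and DESeq2 called 4. The edgeR count there was 3 without 12Q replicate 1, 12Q replicate 2 or WT replicate 2. The median was -2.01 in 12Q against 48Q and 1.21 in 48Q against WT.

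Of 20 epithelial genes known as targets of p63, all tested, edgeR called 4 higher and 1 lower in 12Q than in WT, a share near the 22.4% of all tested genes, with 15 not past and a median log2 fold change of 0.72. Grhl3, a factor of epithelial barrier formation, had 6.73 and 6.81 CPM in 12Q and 0.873 and 1.28 in 48Q, and 0 counts in WT, so it was at least 46.8-fold higher in 12Q and at least 7.46-fold higher in 48Q, against 3 counts per WT library. The call for 48Q (adjusted p = 0.0282) was lost without any 1 of the 48Q or WT libraries (adjusted p = 0.0501 to 0.124). Pkp1, a desmosome plaque gene, had 50.6 and 152 CPM in 12Q, against 20.4 and 37.8 in 48Q and 8.50 and 19.5 in WT (log2 fold change 2.85 against WT, adjusted p = 0.031). That call was lost without 12Q replicate 2 (1.86, adjusted p = 0.101), WT replicate 1 (2.38, 0.122) or WT replicate 2 (3.57, 0.0641), and the value was 3.49 without 12Q replicate 1. Tfap2c, a factor of epithelial development, was at 45.1 ± 14.1 CPM in 12Q, 27.2 ± 0.258 in 48Q and 15.6 ± 6.34 in WT (1.53 in 12Q against WT, adjusted p = 0.0353). It did not pass without 12Q replicate 2, WT replicate 1 or either 48Q library, nor with only the compared groups (adjusted p = 0.073 to 0.11). The gene called lower was Bmp7 (-0.82, adjusted p = 0.0471). The 5 calls in 12Q against WT dropped to 1 without 12Q replicate 2 and to 2 without either 48Q library. Against WT, 2 were higher in 48Q, beside 3.95% of all tested genes. That count was 1 without either 12Q library and 0 without either WT or 48Q library, while without WT replicate 2 another gene was called lower. Between the tumors 0 passed with edgeR, 5 had an unadjusted p under 0.05 and DESeq2 called 4, and edgeR called 2 without either WT library. Over all genes between the tumors, 3961 of 15050 had an unadjusted p under 0.05 and DESeq2 called 2497 of 15859. The list medians in 48Q against WT and between the tumors were 0.79 and 0.12. Trp53, the p53 gene, was at 97.4 ± 9.83 CPM in 12Q, 68.5 ± 1.55 in 48Q and 30.5 ± 11.4 in WT. It was higher in 12Q than in WT (1.68, adjusted p = 0.0149), a call lost without 12Q replicate 2 (adjusted p = 0.0513). Trp73, the third member of the family, had 0, 7 and 5 counts in 12Q, 48Q and WT and was not tested.

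Keratins and envelope genes of suprabasal and squamous epithelium were also set beside Krt5 and Krt14. Of 10 such genes, 9 were tested, and edgeR called 4 higher and 1 lower in 12Q than in WT, against 22.4% of all tested genes, with a median log2 fold change of 3.98. Krt6a, a keratin of activated and hair follicle epithelium, had 21.4 and 21.4 CPM in 12Q, against 5.69 and 9.15 in 48Q and 0.104 and 0.0442 in WT. The 3 WT counts gave a ratio of 298-fold higher in 12Q (exact 95% interval 102 to 1450, adjusted p = 0.0027) and 104-fold higher in 48Q (35.4 to 506, adjusted p = 0.00991), the second call being lost without WT replicate 1 (adjusted p = 0.08), where the log2 fold change of 12Q against WT was 8.79 in place of 8.12. Krt4 was at 16.6 ± 4.04 CPM in 12Q, 17.9 ± 3.79 in 48Q and 1.98 ± 0.886 in WT, higher in both tumors (adjusted p = 0.0095 and 0.0251), the call for 48Q being lost without 48Q replicate 1 (adjusted p = 0.0666), 48Q replicate 2 (0.128) or WT replicate 1 (0.106). Sbsn, which encodes suprabasin, was at 173 ± 57.5 CPM in 12Q, 20.5 ± 6.75 in 48Q and 6.14 ± 3.89 in WT. It was higher in 12Q than in 48Q (3.08, adjusted p = 0.038), and Krt1 was lower there (-5.92, adjusted p = 0.0229). Both calls between the tumors were lost without any 1 of the 4 tumor libraries, as were most calls over all genes. In 48Q against WT, 8 of the list had an unadjusted p under 0.05, beside 3749 of all 15050 tested genes. DESeq2 called 7, all higher, beside 2554 of 15492 genes, 1592 of them higher. With edgeR, 2 genes were higher in 48Q than in WT, beside 3.95% of all tested genes. That count was 4 without either 12Q library, 1 without either 48Q library and 0 without WT replicate 1. The median was -0.88 in 12Q against 48Q and 3.11 in 48Q against WT.

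Markers of other cell types also differed between the groups, some in the direction of the lost basal genes and some not. Their part in the basal results was not tested. Of all tested genes, edgeR called 11.2% lower and 11.2% higher in 12Q than in WT, and 3.16% lower and 1.01% higher in 12Q than in 48Q. Of 9 fibroblast markers, 5 were lower in 12Q than in WT and 5 lower than in 48Q. Their summed level was 161 to 464 CPM in 12Q, 1036 to 1149 in 48Q and 660 to 767 in WT. Of these, Lum was at 0.127 ± 0.127 CPM in 12Q, 60.2 ± 4.63 in 48Q and 20.5 ± 3.43 in WT, Pdgfra was at 0.983 ± 0.186, 72.8 ± 13.0 and 32.8 ± 13.3, and Dpt had 0 counts in 12Q. Of the 4 that did not pass, Dcn was at 107 ± 86.4 CPM in 12Q, 396 ± 123 in 48Q and 394 ± 73.4 in WT (-1.88 in 12Q against WT, adjusted p = 0.0733). Col1a1 was at 134 ± 85.5 CPM in 12Q, 169 ± 31.6 in 48Q and 43.4 ± 43.4 in WT (1.63 in 12Q against WT, adjusted p = 0.198). Dcn, Col1a1 and Dpt were chosen after their values were seen. Smooth muscle markers were lower in 12Q than in WT in 10 of 10, and 5 of 10 were lower in 12Q than in 48Q, a count that was 0 without either 12Q library and 1 without 48Q replicate 1. The log2 fold changes of 12Q against 48Q were -8.78 for Lum (-8.06 and -10.49 without 12Q replicate 1 and 2), -6.20 for Pdgfra and -6.09 for the smooth muscle gene Cnn1 (-5.04 and -6.68 without 48Q replicate 1 and 2), beside -7.80 for Trp63. The call of Cnn1 was lost without 12Q replicate 1 or 2 (adjusted p = 0.081 and 0.0805). Luminal markers summed to 10170 to 12580 CPM in 12Q, 7748 to 9420 in 48Q and 24640 to 43680 in WT, and without Pbsn to 10170 to 12580, 5465 to 5501 and 8494 to 15460. Of 15 luminal markers, 2 were higher and 2 lower in 12Q than in WT, beside 22.4% of all tested genes in either direction. Between the tumors 1 was higher and 1 lower in 12Q than in 48Q, beside 4.17%, with 0 to 1 calls left without any 1 tumor library.

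Endothelial markers, of cells that also use Itga6, summed to 346 to 386 CPM in 12Q, 191 to 197 in 48Q and 87.0 to 142 in WT, the same order of groups as Itgb4. Of 9, 5 were higher and 1 lower in 12Q than in WT, a count of 6 that was 2 without 12Q replicate 1, 1 without 12Q replicate 2 and 3 without either 48Q library. The counts of this and the following lists stand beside 22.4% of all tested genes called in either direction in 12Q against WT. In 48Q against WT that share was 5.18%. Schwann cell and nerve markers, of cells that use Dst and Itgb4, summed to 127 to 179 CPM in 12Q, 91.7 to 120 in 48Q and 116 to 117 in WT, and Sox10, their defining factor, had 0 counts in 12Q. Of 8, 2 were lower in 12Q than in WT, and 0 without either 12Q library or WT replicate 2. Urothelial markers, of an epithelium with its own Trp63 and Krt5 positive layer, summed to 711 to 1854 CPM in 12Q, 425 to 554 in 48Q and 1189 to 1253 in WT. Most of these sums came from Gata3 (means of 760, 363 and 952 CPM) and Upk1b (505, 104 and 252), both named after their values were seen. Of the 7 markers, 1 was higher (Upk2) and 1 lower (Upk3b) in 12Q than in WT, and Upk3a had 0 counts in WT. The call of Upk3b was lost with library totals, with only the compared groups and with the replicate block. It was also lost without 12Q replicate 1 (log2 fold change -5.80), 12Q replicate 2 (-10.97) or WT replicate 1 (-3.80). Leukocyte markers summed to 152 to 205 CPM in 12Q, 212 to 236 in 48Q and 44.8 to 51.6 in WT, with 6 of 8 tested higher in each tumor than in WT. For 48Q these calls were lost without either 48Q library or WT replicate 1, as were most or all calls over all genes. Skeletal muscle markers, of tissue beside the prostate, summed to 0.333 to 0.650 CPM in 12Q, 2.22 to 8.67 in 48Q and 73.7 to 201 in WT, with 2 of 2 tested lower in 12Q than in WT, 1 without any 1 of the 12Q or WT libraries. Neuroendocrine markers summed to 1.64 to 1.70 CPM in 12Q, 3.31 to 4.76 in 48Q and 4.90 to 5.31 in WT, and the 1 call among 2 tested, lower in 12Q than in WT, was lost without any 1 library.

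**Figure D4:**
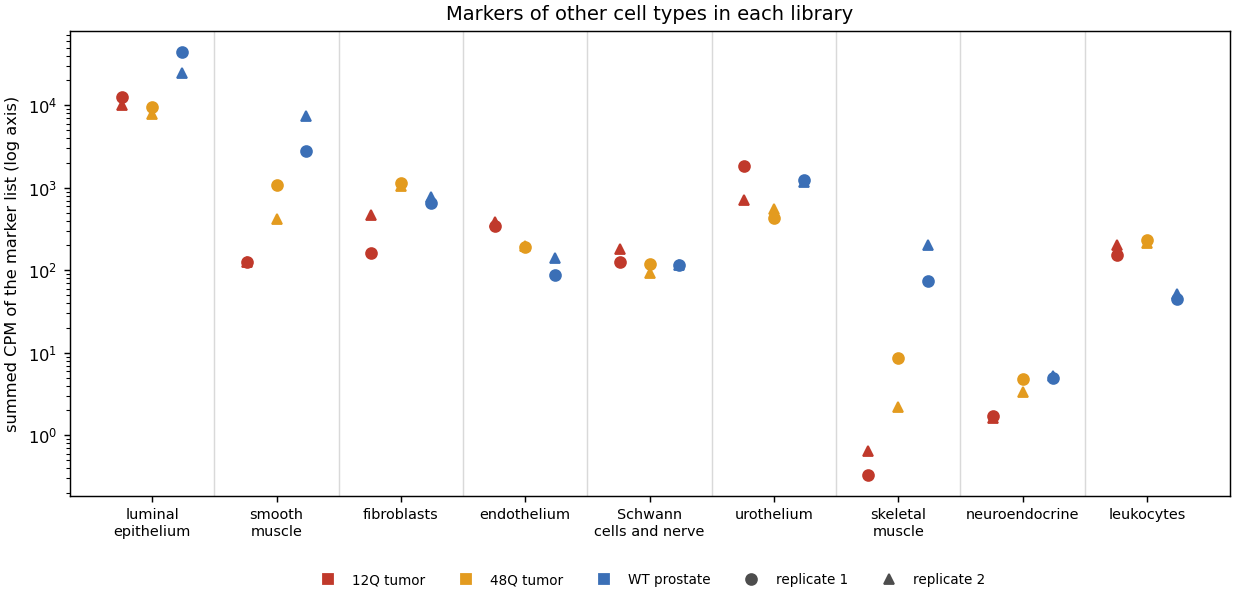
Summed CPM on a log axis of marker lists of other cell types, 1 point per library (circle replicate 1, triangle replicate 2), with 12Q, 48Q and WT from left to right. The fibroblast and smooth muscle sums of both 12Q libraries lie below those of all other libraries, and the endothelial sums lie above them.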

How the data were processed

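RNA of 6 fresh mouse prostate samples (12Q tumor, 48Q tumor and WT prostate, 2 libraries each) was extracted with RNA-Bee, and Kapa RNA Hyperprep libraries were made, per the labels' protocols. The deposited values are raw read counts per gene, not normalized. The submitters' processing notes name TopHat2 2.0.14, HTSeq 0.6.0 and the mm10 build, and no strand setting is given in the sources used here. Gene lengths in kilobases that stand in the authors' deposited table were used for levels per length.

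Counts were tested with edgeR 4.0.16 (R 4.3.3, limma 3.58.1) by the quasi-likelihood F test in 1 fit of 3 groups, with trimmed mean of M-values scaling and filterByExpr (minimum count of 10, minimum total of 15). This left 15050 of 24091 genes and 3 residual degrees of freedom. P-values were adjusted by Benjamini-Hochberg over all tested genes, with a threshold of 0.05. Standard errors are the fold change divided by the square root of F, an approximation. The biological coefficient of variation was 0.378. Ratios that rest on 1 to 3 counts have exact 95% intervals, and a group at 0 counts gives a bound at 3 counts per library; both cover counting error only. DESeq2 1.42.0, other scalings, no filter, only the compared groups, a replicate block and each left-out library were the alternatives.

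The basal genes and the lists were chosen with earlier results of these data known. Named genes were all basal genes, Ctnnb1, the prostate markers Pbsn and Hoxb13, up to 3 called genes per list, those of smallest adjusted p, and the 5 genes nearest to Trp63 and to Itgb4. A few genes that this rule or the lists hold are not reported here. Exon overlaps and shared words were taken from the GENCODE M21 annotation, and promoters from RefSeq (GRCm38.p6).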

Additional observations from a re-analysis of the deposited data

Results flagged for a closer look

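For 5 basal genes the difference from WT was not the same in the 2 tumor genotypes, by the edgeR test of 12Q against 48Q (the difference between both contrasts with WT). That log2 difference was -7.80 for Trp63, -8.08 for Krt5, -8.20 for Krt15, -8.28 for Col17a1 and -2.49 for Dst. For the first 4 genes, both 12Q libraries lay below every 48Q and WT library, and the adjusted p stayed under the threshold under every alternative, the largest being 0.0474 for Krt5 without 12Q replicate 1. For Dst it did not pass without any 1 of the 4 tumor libraries.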

How the results depend on the processing

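Trp63, Krt5, Krt15 and Col17a1 were called in both comparisons of 12Q under every alternative. Basal genes called numbered 6 to 7 in 12Q against WT, 4 to 5 in 12Q against 48Q and 0 to 0 in 48Q against WT when 1 library was left out. In 48Q against WT, library totals gave 1 (Itgb4) and DESeq2 gave 2. Over all genes, left-out libraries gave 1861 to 2934 calls for 12Q against WT, 47 to 866 for 12Q against 48Q and 0 to 1215 for 48Q against WT (0 without WT replicate 1). In 12Q against WT, 1887 were called with only the 2 compared groups. In 48Q against WT, library totals gave 2004 and DESeq2 2554, and in 12Q against 48Q DESeq2 gave 2497. Signs turned only for values not past the threshold. With library totals these were Lamb3 in 12Q against WT (0.18), and Trp63 (0.17), Krt14 (0.25) and Krt15 (0.60) in 48Q against WT. Itga6 in 12Q against 48Q was 0.022 with DESeq2 size factors, 0.011 with no filter, 0.031 with DESeq2 and 0.015 with only the compared groups. The cause was not tested. Left-out libraries gave -2.14 to 0.46 for Lamb3 in 12Q against WT, -1.21 to 0.85 for Krt14, -0.67 to 0.30 for Krt15 and -0.13 to 0.54 for Col17a1 in 48Q against WT, and -0.24 to 0.24 for Itga6 and -2.46 to 0.11 for Lamb3 in 12Q against 48Q. Replicate numbers share no stated source. With the replicate block, 7 basal genes and 3066 genes in all were called in 12Q against WT, 5 and 605 for 12Q against 48Q, and 0 and 854 in 48Q against WT, where same-numbered deviations correlated at 0.134, 0.025 and -0.103. With 2 libraries a group, and 1 to 17 counts in 12Q for the 4 lost genes, the size of their loss is less certain than its direction.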

Other observations

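In the luminal list, Krt7 was higher in the tumors in which Trp63, Krt5, Krt15 and Col17a1 were nearly absent. Krt7, a keratin of simple and ductal epithelia, had 206 and 391 CPM in 12Q, against 23.8 and 33.3 in 48Q and 8.19 and 3.58 in WT. It was higher in 12Q than in WT by 5.67 on the log2 scale (edgeR adjusted p = 0.00409; 6.38 without WT replicate 1) and than in 48Q by 3.39 (adjusted p = 0.0289), the second call being lost without any 1 tumor library (adjusted p 0.0554 to 0.16).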
